A study of Homo sapiens with 9 samples.

Results

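The cytosolic heat shock chaperones examined here were 10 genes, HSPA1A, HSPA1B, HSPA8, HSPH1, DNAJB1, BAG3, HSP90AA1, HSPB1, HSPD1 and HSPE1. They were chosen by name with no threshold on a measured value, but with earlier results of these data known. Every non-control probe whose accession was a RefSeq transcript of one of them was taken, which gave 14 probes among the 26457 kept, and 10 of the 21832 genes tested. RNA came from the human ovarian carcinoma cell line A2780, in 3 groups of 3 arrays each. The groups were untreated cells, cells given 8 nM DIG-MSK and cells given 80 nM DIG-MSK, the treated ones for 24 h. DIG-MSK is an analogue of the antibiotic mithramycin A, which binds GC-rich DNA. The untreated cells are labelled as having had no treatment, the solvent of the DIG-MSK stocks was a saline solution according to the study's methods, whether untreated cells received it is not stated in the sources used here, and all results are from a single cell line. Each sample of a group came from an independent culture, according to the study's methods.

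Heat shock proteins keep other proteins folded. HSP70 proteins bind exposed stretches of a client, J-domain proteins such as DNAJB1 bring clients and start ATP hydrolysis, and exchange factors such as HSPH1 and BAG3 let the client go, often towards HSP90 or a chaperonin. Small heat shock proteins such as HSPB1 hold unfolded clients without ATP. The heat shock factor HSF1 induces most of these genes through heat shock elements, which are inverted repeats of the unit NGAAN. HSPD1 (HSP60) and HSPE1 (HSP10) are nuclear genes whose products form the chaperonin of the mitochondrial matrix, so the word cytosolic holds for the other 8 members and not for this pair.

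The promoters are shown because DIG-MSK belongs to a class of compounds that bind GC-rich DNA and because the heat shock elements and the GC box, the letters read by SP1-type factors, lie in them. RefSeq promoters on GRCh38.p14 were matched for 10 of 10 members, with 14 transcription starts, and the 250 bases before each start were searched. Printed here 5′ to 3′ on the gene's strand, with heat shock element pairs (GAANNTTC or TTCNNGAA) and GC boxes (GGGCGG or CCGCCC, which covers both strands) in capitals, are HSPA1A and HSPA1B, the near-identical pair, HSPB1 and HSPA8, which have heat shock elements, and BAG3, which has GC boxes alone. The windows are chr6:31815293-31815542, plus strand for HSPA1A, chr6:31827488-31827737, plus strand for HSPA1B, chr7:76302423-76302672, plus strand for HSPB1, chr11:123062137-123062386, minus strand for HSPA8 and chr10:119651130-119651379, plus strand for BAG3.
HSPA1A: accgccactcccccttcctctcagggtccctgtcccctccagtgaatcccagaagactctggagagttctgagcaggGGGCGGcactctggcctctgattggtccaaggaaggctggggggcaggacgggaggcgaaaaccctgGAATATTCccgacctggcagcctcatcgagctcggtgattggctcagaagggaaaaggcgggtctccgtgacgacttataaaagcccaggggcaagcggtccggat
HSPA1B: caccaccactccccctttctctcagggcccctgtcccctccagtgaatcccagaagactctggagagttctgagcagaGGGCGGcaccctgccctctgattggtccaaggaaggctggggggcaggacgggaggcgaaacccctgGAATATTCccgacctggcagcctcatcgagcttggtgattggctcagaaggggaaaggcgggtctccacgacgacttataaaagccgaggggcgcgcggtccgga
HSPB1: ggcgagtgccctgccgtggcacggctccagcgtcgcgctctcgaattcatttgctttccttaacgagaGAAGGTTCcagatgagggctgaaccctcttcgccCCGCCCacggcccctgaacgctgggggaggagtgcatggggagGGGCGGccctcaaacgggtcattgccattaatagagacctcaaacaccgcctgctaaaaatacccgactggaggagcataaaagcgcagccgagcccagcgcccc
HSPA8: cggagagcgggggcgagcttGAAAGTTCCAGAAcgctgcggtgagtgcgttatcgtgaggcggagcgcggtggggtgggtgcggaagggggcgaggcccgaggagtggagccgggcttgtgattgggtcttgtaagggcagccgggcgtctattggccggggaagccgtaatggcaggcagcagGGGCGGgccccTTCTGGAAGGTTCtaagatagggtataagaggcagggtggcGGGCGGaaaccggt
BAG3: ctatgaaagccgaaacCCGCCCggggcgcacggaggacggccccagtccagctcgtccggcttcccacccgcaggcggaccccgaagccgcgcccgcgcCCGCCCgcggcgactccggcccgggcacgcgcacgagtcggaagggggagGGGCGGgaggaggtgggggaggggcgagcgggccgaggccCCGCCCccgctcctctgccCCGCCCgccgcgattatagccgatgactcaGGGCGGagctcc

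The HSPA1A and HSPA1B windows were 93.6% identical, with 14 mismatches and 2 gaps over 251 aligned columns, and no protein-coding gene lies between the pair in RefSeq order. Both hold the same heat shock element pair, which starts 106 bases before the start of HSPA1A and 105 bases before that of HSPA1B, 1 GC box, 2 CCAAT boxes (CCAAT or ATTGG) and 1 TATA box (TATAAA or TATATA). HSPA8 held 2 runs in which a further unit continues the pair (a heat shock element triplet), and HSPB1 held 1 pair and 2 GC boxes. BAG3 had 6 GC boxes and 78.0% GC, a GC content above that of 94.3% of all windows, and no heat shock element pair. HSPH1, at 50.4% GC, had none of these motifs.

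Other heat shock element runs were found before one start each of HSP90AA1, DNAJB1 and HSPD1, and are printed in capitals as the letters that matched.
HSP90AA1, start 2, 88 to 76 bases before: TTCCGGAAGGTTC
HSP90AA1, start 2, 68 to 61 bases before: TTCTGGAA
DNAJB1, start 2, 77 to 70 bases before: GAAGGTTC
DNAJB1, start 2, 47 to 40 bases before: GAAGCTTC
HSPD1, start 2, 245 to 228 bases before: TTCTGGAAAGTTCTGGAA
In all, 7 of the 14 windows, from 7 of the 10 members, held a pair of either arrangement, beside 11.6% of all 35116 windows. A triplet was present in 3 windows, beside 0.441% of all windows, and a GC box in 13, beside 42.6%. CCAAT boxes were in 32.0% of all windows and TATA boxes in 9.51%. A match of letters is no evidence that a factor bound there in these cells, and the absence of one concerns this window only.

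**Figure D1:**
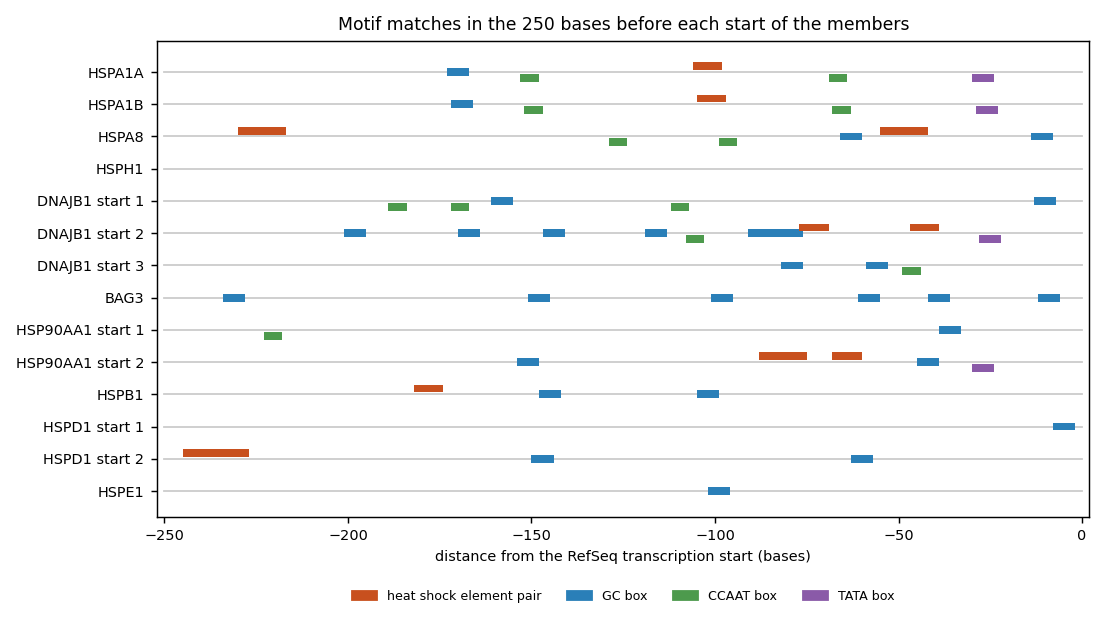
Motif matches in the 250 bases before each of the 14 RefSeq starts of the members (x axis, distance from the start in bases; 1 line per start). Orange bars are heat shock element pairs, blue bars GC boxes, green bars CCAAT boxes and purple bars TATA boxes; HSPA1A and HSPA1B share their layout, BAG3 has 6 GC boxes and HSPH1 has no bar.

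HSPD1 and HSPE1 are read in opposite directions from a shared region. The 104 bases between the HSPE1 start and start 1 of HSPD1, chr2:197500275-197500378 on GRCh38.p14, belong to the promoters of both genes. They are printed on the plus strand, which is that of HSPE1, with the GC box in capitals.
HSPD1 and HSPE1: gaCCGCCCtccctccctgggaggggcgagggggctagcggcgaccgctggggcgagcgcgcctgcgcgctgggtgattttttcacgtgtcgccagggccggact
No heat shock element pair was found in this stretch.

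Levels are given as log2 of the deposited processed intensity minus the log2 of the 75th percentile of the same array, so a level of 0 is the 75th percentile, and levels of different probes are not set against each other. That percentile lay between 825.9 and 1166 intensity units, and 0 gene spots were saturated. Changes are differences of these log2 levels, and adjusted p-values are from limma over all 21832 genes. A gene was called when it differed at least 1.5-fold with an unadjusted p under 0.05, which is the study's rule, and "rose" and "fell" are kept for adjusted p-values under 0.05. The untreated and 8 nM arrays share slide 1 and its scan, and the 80 nM arrays are on slide 2, so an effect of 80 nM and of the slide cannot be told apart. A change in the share of a transcript within the labelled RNA and a change in RNA per cell cannot be told apart either. The 10 markers checked for the identity of the line were epithelial or ovarian, except CDH2 and VIM, which are mesenchymal. EPCAM, KRT8, KRT18, KRT19, CDH2 and VIM were well above background on 9 arrays, PAX8 on 3, and CDH1, MUC16 and WT1 on 0. Of the leukocyte and endothelial markers reported, PTPRC, CD14 and CDH5 were well above background on 9 arrays, CD3E and VWF on 3, and PECAM1 on 0, and their part in the results was not tested.

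Across the 10 members, 8 nM DIG-MSK was followed by small shifts that were mostly downward. At 80 nM, HSPB1 and HSPA1B were higher than in untreated cells and HSPA1A was lower, the probes of HSP90AA1 disagreed, and the other 6 did not pass the test. At 8 nM, 1 member was called up and 0 down, beside 7.1% of all genes called, 4.25% up and 2.84% down. With adjusted p-values and no fold limit, 1 member rose (HSPB1) and 4 fell (HSPA8, HSPH1, BAG3 and HSPE1), beside 13.6% of all genes, 7.88% up and 5.71% down. The median change of the members was -0.30, and that of all genes -0.06. At 80 nM against untreated, 2 members were called up and 1 down, and the same 3 passed with no fold limit. The 1 down, here and against 8 nM, was HSPA1A, whose 80 nM signal was not well above background. HSPA1A passed the filter only through the brighter groups, so its call carries no more than a bound. With the filter on all 9 arrays HSPA1A had no value, and HSPA1B and HSPB1 were called up in both comparisons. All genes were called at 35.1%, 18.9% up and 16.2% down, so that the members' share of 30%, HSPA1A included, was near that of the whole array. In all, 59% of genes passed with no fold limit, 33.6% up and 25.4% down. Between 80 nM and 8 nM, 2 were called up and 1 down, beside 33.7% of all genes, 19.7% up and 14.1% down. With no fold limit 8 rose and 1 fell, beside 57.7% of all genes, 34.9% up and 22.8% down. The 3 comparisons share arrays and are not independent of each other.

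**Figure D2:**
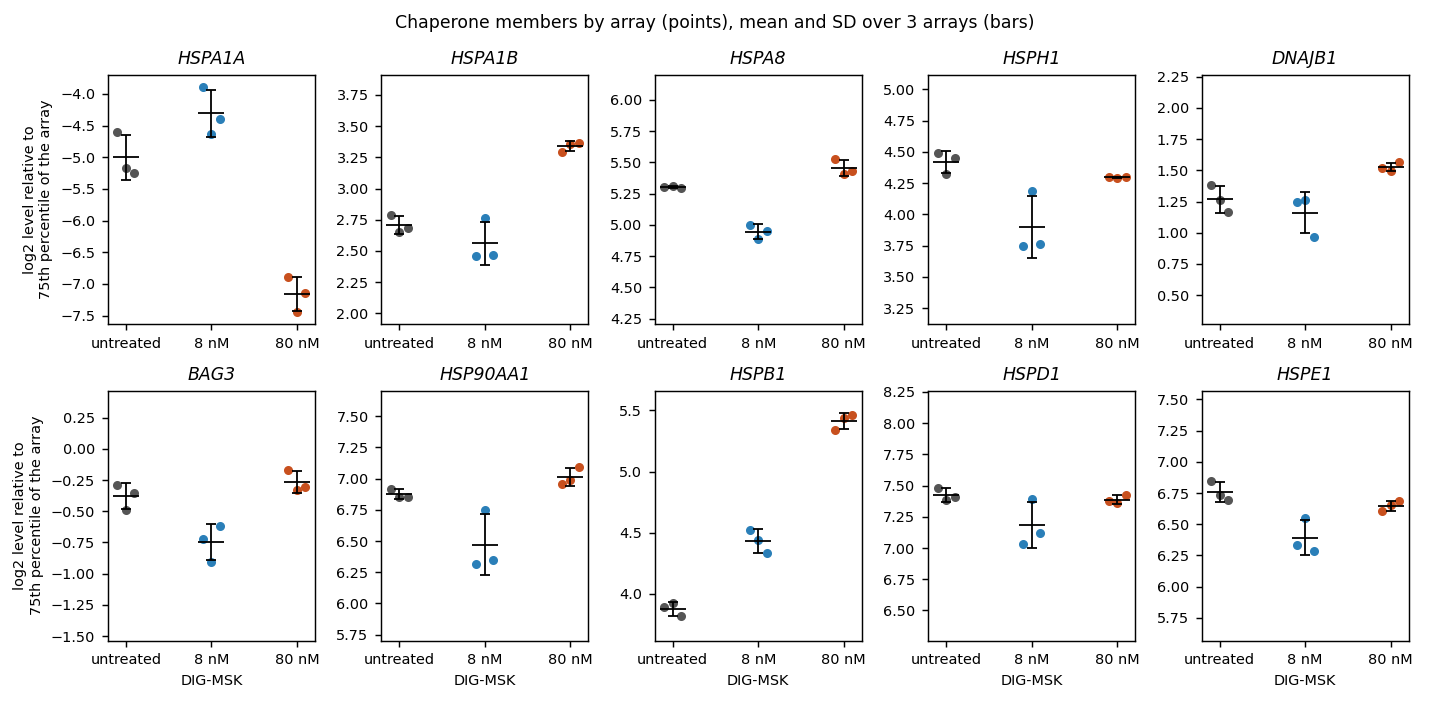
Log2 level of each member relative to the 75th percentile of the array (y axis, a span of at least 2 log2 units in every panel) in the 3 untreated, 3 8 nM and 3 80 nM arrays (points), with mean and SD (bars, n = 3). HSPB1 climbs from 3.88 to 5.41, HSPA1B is highest at 80 nM, and the HSPA1A points at 80 nM are not well above background.

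HSPA1A encodes an inducible HSP70. Its probe (A_23_P111132, 10 spots per array) read -4.60, -5.17 and -5.25 on the untreated arrays, -3.90, -4.63 and -4.40 on the 8 nM arrays, and -6.90, -7.44 and -7.14 on the 80 nM arrays. The 8 nM and untreated arrays overlapped by 1 array each way, and every 80 nM array lay below all others. In deposited intensity these are dim signals, between 26.8 and 34.1 in untreated cells, 33.3 and 76.3 at 8 nM, and 5.09 and 8.21 at 80 nM.

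At 80 nM the HSPA1A probe was well above background on 0 of 3 arrays, against 3 of 3 untreated and 3 of 3 at 8 nM, so it passed the filter only through the groups where it was brighter and its difference is given as a bound. With the main processing, this nominal bound put HSPA1A 1.93-fold lower at 80 nM than in untreated cells and 3.13-fold lower than at 8 nM. The limma adjusted p-values, 0.00012 and 2.8e-05, belong to the measured means (-5.00 untreated, -4.31 at 8 nM and -7.16 at 80 nM) and not to these bounds. The bound is the mean of the brighter group against the dimmest signal that still counted as well above background on each dim array. The mean net signal of the negative control spots was 31.1 to 38.6 on slide 1 and 22.1 to 22.7 on slide 2, and its part in the result was not tested. With normexp background correction, which compresses dim signals, the measured change at 80 nM was -0.34 with an adjusted p of 0.028. With the authors' log2 values it was -0.63 (adjusted p = 0.00076). Both are smaller falls than the bound, which therefore holds for the main processing only. At 8 nM the HSPA1A change was 0.70 (SE 0.24, 1.62-fold), which was called but had an adjusted p of 0.094.

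HSPA1B, the adjacent copy of HSPA1A, encodes a nearly identical HSP70 protein. Its probe (A_33_P3415430) read 2.79, 2.65 and 2.68 in untreated cells, 2.46, 2.76 and 2.47 at 8 nM, and 3.29, 3.36 and 3.37 at 80 nM. All 80 nM arrays were above all others, and the 8 nM arrays overlapped the untreated ones. HSPA1B rose at 80 nM by 0.63 (SE 0.09, 1.55-fold, adjusted p = 0.00061) and did not pass the test at 8 nM, with a change of -0.14 and a 95% interval of -0.36 to 0.07. Scaled to the spike-in probes, the 80 nM change was 0.35 with an adjusted p of 0.20. The HSPA1A and HSPA1B probes thus read in opposite directions at 80 nM. The files hold no probe sequences, and whether either probe also binds the transcript of the other copy was not tested.

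HSPA8 encodes the constitutive HSP70 of the cytosol. It read 5.30, 5.31 and 5.30 on the untreated arrays, 5.00, 4.88 and 4.95 at 8 nM, and 5.52, 5.41 and 5.43 at 80 nM. The 3 groups did not overlap, with the 8 nM arrays lowest and the 80 nM arrays highest. HSPA8 fell at 8 nM by 0.36 (SE 0.07, adjusted p = 0.011), which is 1.28-fold, and was higher at 80 nM than at 8 nM by 0.51 (adjusted p = 0.00029). The 80 nM change against untreated, 0.15, had an adjusted p of 0.075.

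HSPH1, the HSP110 that acts as nucleotide exchange factor of HSP70, had 2 probes. The brighter (A_23_P88119) read 4.49, 4.32 and 4.45 in untreated cells, 3.75, 4.18 and 3.76 at 8 nM, and 4.30, 4.29 and 4.30 at 80 nM. All 8 nM arrays were below all others, replicate 2 by the least, and the 80 nM arrays lay just under the untreated ones. HSPH1 fell at 8 nM by 0.52 (SE 0.12, adjusted p = 0.024) and was higher at 80 nM than at 8 nM by 0.40 (adjusted p = 0.021). The 80 nM change against untreated did not pass the test (-0.13, 95% interval -0.40 to 0.15). The dimmer probe gave -0.64 (adjusted p = 0.0038), 0.50 and -0.15 for the same comparisons, the first past 1.5-fold.

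DNAJB1, the main stress-inducible J-domain partner of HSP70, read 1.38, 1.26 and 1.16 in untreated cells, 1.24, 1.26 and 0.97 at 8 nM, and 1.52, 1.5 and 1.56 at 80 nM. The 80 nM arrays were above all others and the remaining groups overlapped. DNAJB1 was higher at 80 nM than at 8 nM by 0.37 (SE 0.10, adjusted p = 0.012), and against untreated by 0.26 with an adjusted p of 0.050, just outside the threshold. BAG3, a BAG-domain exchange factor that also links HSP70 to autophagy, read -0.29, -0.49 and -0.36 in untreated cells, -0.72, -0.90 and -0.62 at 8 nM, and -0.17, -0.33 and -0.30 at 80 nM. The 8 nM arrays of BAG3 were the lowest, while the 80 nM and untreated arrays overlapped. BAG3 fell at 8 nM by 0.37 (SE 0.10, adjusted p = 0.041) and was higher at 80 nM than at 8 nM by 0.48 (adjusted p = 0.0032).

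HSP90AA1 encodes the inducible HSP90 of the cytosol and had 3 probes, which did not read alike at 80 nM. The brightest (A_33_P3665777, transcript NM_001017963) read 6.92, 6.86 and 6.85 in untreated cells, 6.32, 6.75 and 6.35 at 8 nM, and 6.95, 6.99 and 7.09 at 80 nM. Its 8 nM arrays were below all others and its 80 nM arrays above. At 8 nM its change was -0.40 (SE 0.12, adjusted p = 0.057) and at 80 nM 0.14 (adjusted p = 0.34).

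A further probe of the same transcript (A_32_P199252) gave -0.59 (adjusted p = 0.016) at 8 nM and -0.40 (adjusted p = 0.019) at 80 nM, and the probe of NM_005348 (A_23_P162874, 10 spots per array) gave -0.62 (adjusted p = 0.026) and -0.70 (adjusted p = 0.0033). The mean of the 3 probes was lower at 80 nM than in untreated cells by 0.32 (adjusted p = 0.012). The 8 nM changes thus had the same sign on every probe of HSP90AA1. At 80 nM the brightest probe did not pass the test and the others fell, so the probes gave no single direction for the gene. Between 80 nM and 8 nM the brightest probe differed by 0.54 (adjusted p = 0.0045), the others by 0.19 and -0.08 (adjusted p = 0.21 and 0.65).

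HSPB1 (HSP27), the small heat shock protein of the set, was the only member with higher levels at both concentrations by adjusted p-values. Its brighter probe (A_33_P3287646) read 3.89, 3.93 and 3.82 in untreated cells, 4.53, 4.44 and 4.33 at 8 nM, and 5.34, 5.43 and 5.46 at 80 nM. The 3 groups were fully apart, in the order of the concentrations. HSPB1 rose by 0.56 at 8 nM (SE 0.08, adjusted p = 0.003), just under 1.5-fold, and by 1.54 at 80 nM (SE 0.08, 2.90-fold, adjusted p = 1.3e-06). The difference between 80 nM and 8 nM was 0.98 (SE 0.08, adjusted p = 1.7e-05).

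The other HSPB1 probe (A_33_P3353242) gave 0.28 at 8 nM (adjusted p = 0.071), 0.99 at 80 nM (1.98-fold, adjusted p = 3.3e-05) and 0.71 between the concentrations. It had the same signs and order with smaller sizes. Scaled to the spike-in probes, the HSPB1 change at 80 nM was 1.25 (adjusted p = 0.00098).

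**Figure D3:**
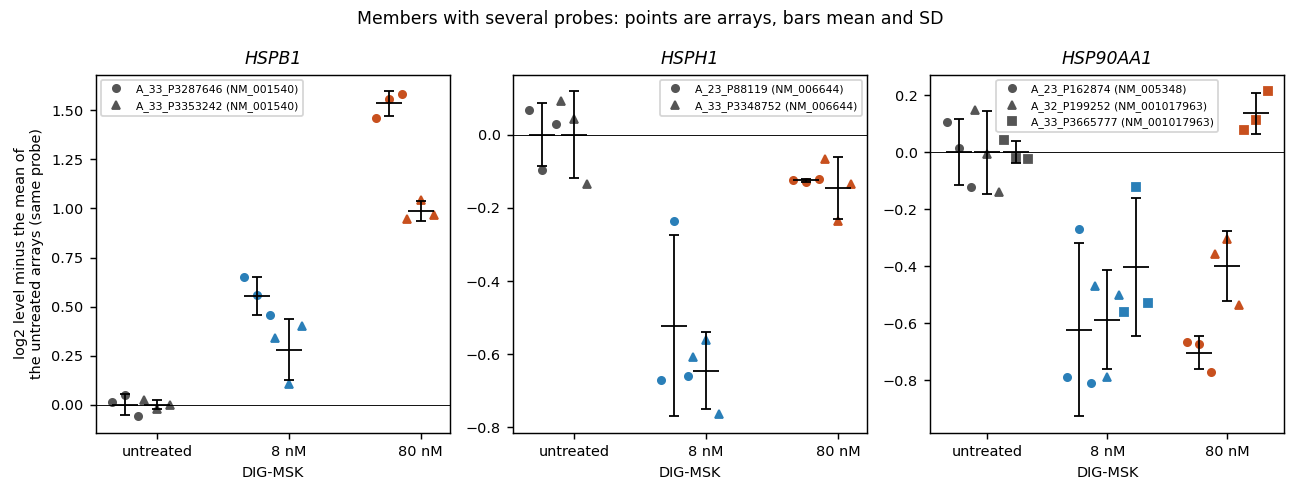
Every probe of HSPB1, HSPH1 and HSP90AA1 as log2 level minus the mean of the untreated arrays for the same probe (y axis), by group (x axis), with points for arrays, 1 symbol per probe, and bars for mean and SD (n = 3). The probes of HSPB1 and HSPH1 keep one direction, while those of HSP90AA1 lie at 0.14, -0.40 and -0.70 at 80 nM.

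HSPD1 and HSPE1 are the subunits of the mitochondrial chaperonin, and HSPE1 fell at 8 nM while HSPD1 did not pass the test. HSPD1 read 7.48, 7.38 and 7.41 in untreated cells, 7.04, 7.39 and 7.12 at 8 nM, and 7.38, 7.36 and 7.43 at 80 nM. Its groups overlapped in all 3 comparisons, its changes were -0.24 at 8 nM (adjusted p = 0.14) and -0.04 at 80 nM (95% interval -0.26 to 0.19), and it was the only member with no adjusted p under 0.05 in any comparison. HSPE1 read 6.85, 6.73 and 6.69 in untreated cells, 6.34, 6.55 and 6.29 at 8 nM, and 6.60, 6.65 and 6.69 at 80 nM. The 8 nM arrays of HSPE1 lay below all untreated arrays, and the 80 nM arrays lay between, close to the lowest untreated one. HSPE1 fell at 8 nM by 0.37 (SE 0.09, adjusted p = 0.029) and was higher at 80 nM than at 8 nM by 0.25 (adjusted p = 0.036), while 80 nM against untreated gave -0.11 (adjusted p = 0.30).

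**Figure D4:**
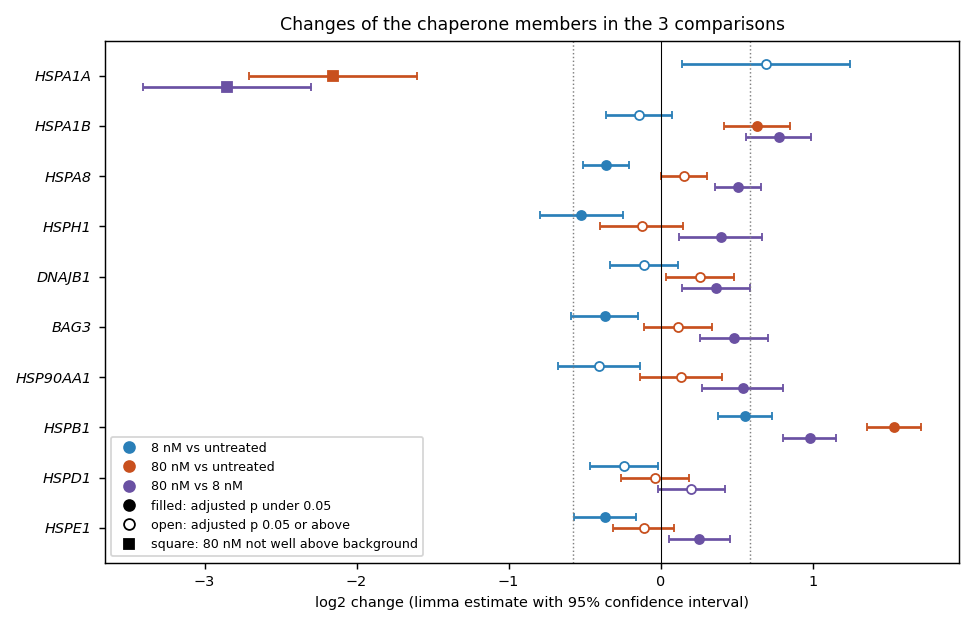
Log2 change of each member with its 95% confidence interval (x axis) in the 3 comparisons, 1 colour each. Filled symbols have adjusted p-values under 0.05, squares mark HSPA1A comparisons whose 80 nM values are not well above background, and dotted lines mark the fold limits 1.5 and 0.67; the 8 nM intervals lie mostly left of 0, and HSPB1 alone lies to the right in all 3.

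Counted by arrays, 5 of 10 members had every 8 nM array below every untreated array and 1 had every 8 nM array above, beside 34.1% of all genes not overlapping, 18.4% below and 15.7% above. For 80 nM against untreated, 5 members were wholly above and 3 wholly below, beside 72.1% of all genes, 40.6% above and 31.5% below. HSP90AA1 counts as above through its brightest probe, and both of its other probes had every 80 nM array below every untreated one. For 80 nM against 8 nM, 8 were wholly above and 1 wholly below, beside 64.9%, 39.6% above and 25.3% below. HSPA1A counts as below in both comparisons through 80 nM signals that were not well above background. For 80 nM against untreated, the members' share (8 of 10) was near that of all genes.

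For several members the 8 nM shift was no larger than the spread of the 8 nM arrays. Replicate 2 of the 8 nM group read higher than replicates 1 and 3 for HSPA1B, HSPH1, DNAJB1, HSP90AA1, HSPD1 and HSPE1, and lower for HSPA1A, HSPA8 and BAG3, and that array also had the fewest probes well above background, 24814 beside 25161 to 27151 on the others. Its part in the results was not tested beyond leaving it out. Without it, HSP90AA1 (-0.54, adjusted p = 0.0029), HSPD1 (-0.34, adjusted p = 0.013) and HSPA1B (-0.24, adjusted p = 0.044) passed the test at 8 nM, and BAG3 did not (-0.29, adjusted p = 0.062). Of the 9 ways to leave out 1 array, BAG3 missed the threshold in 8 (adjusted p = 0.045 to 0.12 over the 9), HSPE1 in 7 (adjusted p = 0.0068 to 0.089), and HSPH1 in 4 (adjusted p = 0.0017 to 0.078). HSPA8 and HSPB1 kept adjusted p-values under 0.05 in all 9. HSPH1 missed it without untreated replicate 1 (adjusted p = 0.075) or 3 (0.078) and without 8 nM replicate 1 (0.061) or 3 (0.078). BAG3 kept it without 8 nM replicate 3 alone, and HSPE1 without 8 nM replicate 2 or 80 nM replicate 1.

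Over genes, deviations of the untreated and 8 nM arrays of one replicate number correlated weakly (0.114, 0.101 and 0.163). Untreated and 8 nM arrays of different numbers correlated at -0.124 to -0.00301. Arrays of different numbers at 8 nM and 80 nM reached 0.118 and 0.125, and the study's methods name no pairing. Whether the numbers mark pairs is therefore not settled, and the number was fitted as a block as an alternative only. Over the 9 arrays with this block, HSPH1 (adjusted p = 0.056) and HSPE1 (0.061) no longer passed at 8 nM, and HSPA1A did (0.014). With the untreated and 8 nM arrays alone in the blocked fit, an alternative chosen after seeing the data, HSPB1 (adjusted p = 0.051), HSPA8 (0.10), BAG3 (0.10), HSPH1 (0.13) and HSPE1 (0.13) all missed the threshold and HSPA1A passed it (0.046). The changes themselves are the same in these fits.

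Differences between 80 nM and the other groups also moved with the scaling. Scaled to the spike-in probes, the median over all genes went from 0.08 to -0.20 at 80 nM against untreated, and from 0.12 to -0.24 against 8 nM. On that scale, 2 of 10 members (HSPB1 and HSPA1B) had positive changes at 80 nM against untreated in place of 6, and 7 in place of 9 against 8 nM. None of the 8 rises from 8 nM to 80 nM kept an adjusted p under 0.05 on that scale (0.056 for HSPB1 to 0.99 for DNAJB1), and with median scaling those of HSPH1 (0.16), DNAJB1 (0.13) and HSPE1 (0.39) did not. The 8 nM falls of HSPA8 (adjusted p = 0.081), HSPH1 (0.099), BAG3 (0.10) and HSPE1 (0.16) missed the threshold with median scaling, and the HSPB1 rise at 8 nM with spike-in scaling (0.29). HSPB1 at 80 nM against untreated kept its direction and an adjusted p under 0.05 on every scale tried.

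The other genes of protein folding were taken as 9 lists with 105 genes, of which 93 were tested. At 8 nM, 2 of the 93 were called up and 0 down (2.15%, beside 7.1% of all genes), with a median change of -0.12 beside -0.06 over all genes. The called genes were DNAJB5, a J-domain protein (1.26, SE 0.10, adjusted p = 0.0002), and HSPA4L, an HSP110-family exchange factor (0.92, SE 0.10, adjusted p = 0.0012). HSPA4L read -1.17, -0.94 and -0.96 in untreated cells, -0.17, -0.24 and 0.09 at 8 nM, and -1.06, -1.07 and -1.04 at 80 nM. DNAJB5 read -0.34, -0.19 and -0.29, then 0.83, 1.17 and 0.97, then -0.36, -0.28 and -0.25 in the same groups. Both were thus highest at 8 nM, with differences of 80 nM from 8 nM of -0.95 (adjusted p = 0.00012) for HSPA4L and -1.28 (adjusted p = 1.5e-05) for DNAJB5.

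Of the 93 listed genes, 12 were called up at 80 nM against untreated and 5 down (18.3%, beside 35.1% of all genes), and their median change was 0.13, beside 0.08 over all genes. Scaled to the spike-in probes, the listed genes were called up in 4 cases and down in 17. Against 8 nM, 11 were called up and 7 down (19.4%, beside 33.7%), which became 6 up and 8 down with median scaling and 2 up and 13 down with spike-in scaling.

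Among the other HSP70 and HSP110 genes, 3 of 8 tested were called up at 80 nM and 0 down (37.5%, beside 35.1% of all genes). HSPA2, an HSP70 best known from the testis, was well above background on 0 of 3 arrays of both other groups and passed the filter only through the 80 nM arrays. The nominal bound put it 2.53-fold higher at 80 nM than in untreated cells and 2.27-fold higher than at 8 nM. HSPA13 rose by 0.81 (adjusted p = 9.5e-05) and HSPA6, a strictly inducible HSP70, by 0.66 (adjusted p = 0.00034). The HSPA6 probe was dim, with means of -4.02 in untreated cells and -3.36 at 80 nM, though well above background on 3 of 3 arrays of each group. Of 19 other J-domain genes, 15.8% were called at 80 nM, beside 35.1% of all genes. DNAJB4 rose by 1.18 (adjusted p = 0.00023), while DNAJC5, the cysteine string protein of vesicles, fell by 1.16 (adjusted p = 1e-05) and DNAJC21 fell by 0.73 (adjusted p = 0.0016).

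The 17 other HSP90 genes and cochaperones held 0 calls at 8 nM and 1 at 80 nM, TTC4 (0.63, adjusted p = 0.00035), beside 7.1% and 35.1% of all genes. With no fold limit, 5 of them fell at 8 nM, FKBP4, PPID, PTGES3, NUDC and AHSA1 (named after their values were seen), among 14 with negative changes, beside 5.71% of all genes that fell. From 8 nM to 80 nM all 17 changes were positive, from 0.07 to 0.66, and 11 passed the adjusted threshold, beside 34.9% of all genes, but scaled to the spike-in probes 10 were positive and 7 negative. PPP5C, a phosphatase that binds HSP90, was the 1 called there (0.66, adjusted p = 0.00045), beside 33.7% of all genes. Among 10 exchange factors and adaptors of HSP70, HSPBP1 alone was called, at 80 nM against 8 nM (0.59, adjusted p = 0.00029), again beside 33.7%.

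Of 14 subunits of the cytosolic chaperonin CCT and of prefoldin, which hands it unfolded actin and tubulin, 3 were called up at 80 nM, CCT8 (0.77, adjusted p = 0.0044), TCP1 (0.75, adjusted p = 0.00034) and CCT5 (0.59, adjusted p = 0.0022), and 1 down, PFDN6 (-0.78, adjusted p = 0.017), which is 28.6% of the list beside 35.1% of all genes. CCT8 read 4.52, 5.20 and 5.14 on the untreated arrays, so the size of its change at 80 nM leans on untreated replicate 1. CCT5 was read by a dim probe (mean -3.26 in untreated cells) and lay just past the fold limit, at 1.507-fold. Against 8 nM, TCP1 (0.93), CCT8 (0.61) and PFDN6 (-0.89) were called in the same directions. Of the 4 other small heat shock proteins tested, HSPB9 was called down at 80 nM (-0.60, adjusted p = 0.0026), and HSPB6 was called up against 8 nM (0.61, adjusted p = 0.014), where it was well above background on 1 of 3 arrays.

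Among the 5 heat shock factors and regulators tested, 2 were called up at 80 nM (40%, beside 35.1% of all genes called) and 0 at 8 nM (beside 7.1%). HSF1 itself changed by -0.13 at 8 nM (adjusted p = 0.28) and fell by 0.29 at 80 nM (adjusted p = 0.011). HSF2 changed by 0.09 (adjusted p = 0.57) and 0.25 (adjusted p = 0.057). HSF4, a heat shock factor of the lens, rose at 80 nM by 0.95 (adjusted p = 6.2e-05) and HSF2BP, which binds HSF2, by 0.63 (adjusted p = 0.015). HSF2BP was dim, with means of -5.45 in untreated cells and -4.82 at 80 nM, and was well above background on 2 of 3 arrays at 8 nM. The HSF4 probe was also dim, with means of -3.28 in untreated cells and -2.33 at 80 nM.

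In the list of further heat-inducible genes, 4 of 14 were called up at 80 nM and 1 down (35.7%, beside 35.1% of all genes), and of the 4, DNAJB4 and HSPA6 also stand in the lists above. IER5, an immediate early gene that acts on HSF1, read 3.37, 3.16 and 3.12 in untreated cells, 3.63, 4.01 and 3.62 at 8 nM, and 4.50, 4.44 and 4.55 at 80 nM, and rose at 80 nM by 1.28 (adjusted p = 4.7e-05). PPP1R15A (GADD34) rose by 0.72 (adjusted p = 0.00067). HMOX1, heme oxygenase, read 2.79, 3.37 and 3.25 in untreated cells, 2.83, 3.59 and 3.15 at 8 nM, and 1.72, 1.71 and 1.61 at 80 nM, and fell at 80 nM by 1.46 (adjusted p = 0.00045). SERPINH1, the collagen chaperone, was called up against 8 nM only (0.59, adjusted p = 0.0045).

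The mitochondrial list, which holds the partners of HSPD1 and HSPE1, had 0 calls in all 3 comparisons. Of all genes, 7.1% were called at 8 nM, 35.1% at 80 nM and 33.7% at 80 nM against 8 nM. Of its 10 changes at 80 nM against untreated 9 were negative and 7 fell by adjusted p-values with no fold limit, beside 25.4% of all genes. Its median change was -0.21, its lowest was CLPB (-0.54, adjusted p = 0.0019), and HSPA9, the mitochondrial HSP70, rose by 0.25 (adjusted p = 0.013), both named after their values were seen. Scaled to the spike-in probes, 10 of 10 were negative.

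The genes whose levels, each relative to its untreated mean, were most like those of HSPA1A over the 9 arrays were TLE6, HLA-F and IFI27L2, with root mean square differences of 0.22, 0.25 and 0.28 log2 units among 12697 genes. That order rests in part on the 80 nM values of HSPA1A, which give only a bound. For DNAJB1 they were TMEM276, NUCKS1 and SPR, with differences of 0.032, 0.050 and 0.057. These are descriptions of likeness over 9 arrays and carry no test.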

How the data were processed

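RNA of 9 cultures was hybridized with 1 dye to SurePrint G3 arrays (62976 spots). The labels and the paper name different labeling kits. The authors extracted the deposited processed intensity with Feature Extraction 10.7.3.1. The study's methods name both a background subtraction and a lowess normalization in that software. The intensity was taken here as background-subtracted and not scaled between arrays. A deposited table of log2 values, made by the authors and tracking the unsubtracted median signal (r 0.99861 to 0.99983), was used as an alternative only. Here the log2 of the processed intensity minus each array's 75th percentile over gene spots was used, without control and outlier spots, and spots of a probe were averaged. A probe was kept where all 3 arrays of some group had it well above background, and of several probes of a gene the brightest was used. Probes were named through RefSeq accessions (25713 of 26576). Tests were run in R 4.3.3 with limma 3.58.1 on all 9 arrays with Benjamini-Hochberg adjustment, after testing on simulated data. Over genes, deviations of the same replicate number correlated at 0.114, 0.101 and 0.163 between untreated and 8 nM, and at -0.124 to 0.0155 in pairs with 80 nM. Arrays of different numbers correlated at -0.124 to -0.00301 between untreated and 8 nM and reached 0.125 in pairs with 80 nM. Whether the numbers mark pairs was not settled. The main fit took no pairing, and the block was an alternative. The members and lists were chosen with earlier results of these data known. Listed genes are named if called with an adjusted p under 0.05 (at most 4 per list and comparison), and HSF1 and HSF2 always. For likeness, the 3 closest genes are named. Alternatives were normexp (offset 50, on the median signal), quantile, median and spike-in scaling, the authors' table, other filters and probe rules, blocks and left-out arrays. One marker gene is not reported here.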

Additional observations from a re-analysis of the deposited data

Results flagged for a closer look

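The direct contrast of 80 nM with 8 nM DIG-MSK had an adjusted p under 0.05 for 9 members, and 3 of these were at least 1.5-fold apart, beside 57.7% and 33.7% of all genes. HSPA1A differed by -2.85 (adjusted p = 2.8e-05 for the measured values). Its 80 nM side is not well above background, which leaves the nominal bound of 3.13-fold lower with the main processing. Over the alternatives, the smallest measured HSPA1A change was -0.62. HSPB1 differed by 0.98 (adjusted p = 1.7e-05) and HSPA1B by 0.78 (adjusted p = 0.00021), and all 3 arrays at 80 nM were above all 3 at 8 nM for both. Scaled to the spike-in probes these became 0.62 (adjusted p = 0.056) and 0.41 (adjusted p = 0.14). Slide and concentration cannot be told apart in the 3 values.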

How the results depend on the processing

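At 8 nM, 1 member was called, and the count was 0 with normexp, the authors' log2 values, the filter on all 9 arrays (where HSPA1A has no value) and adjusted p-values with the fold rule, 2 with quantile, median or spike-in scaling and with the mean of a gene's probes, 3 with each probe counted separately, and 5 with adjusted p-values and no fold limit. The 2 listed genes called at 8 nM became 4 with median or spike-in scaling or with each probe separate, and 14 with adjusted p-values and no fold limit. At 80 nM against untreated, the 3 members called became 2 with normexp and the filter on all 9 arrays (HSPB1 and HSPA1B) and with median or spike-in scaling (HSPB1 and HSPA1A), and 4 with each probe separate (HSP90AA1 down), and the 17 listed genes called became 11 with normexp and 53 with no fold limit. For 80 nM against 8 nM, no fold limit gave 9 members and 55 listed genes. Leaving out 1 array at a time gave 0 to 2 members at 8 nM, 3 to 3 at 80 nM and 3 to 4 for 80 nM against 8 nM, and 2 to 4, 14 to 18 and 14 to 18 listed genes. Without untreated replicate 2 or 3, or 8 nM replicate 1, HSPA1A lost its call at 8 nM.

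Changes turned sign with spike-in scaling at 80 nM for HSPA8 (-0.13), DNAJB1 (-0.026), BAG3 (-0.17) and HSP90AA1 (-0.15), and against 8 nM for HSPD1 (-0.16) and HSPE1 (-0.11). HSP90AA1 at 80 nM was also negative with the mean of its probes (-0.32). The cause was not tested, beyond that spike-in scaling adds -0.28 (80 nM against untreated) or -0.36 (against 8 nM) to every gene. Of all calls at 80 nM, 71.9% were down on that scale, with 4134 up and 3534 down on the main one, and 77.3% against 8 nM, with 4290 up and 3072 down on the main one. The replicate block left counts of called members at 1, 3 and 3 and of listed genes at 2, 17 and 18, in the order of the comparisons above, and beyond the 8 nM p-values in the report changed no adjusted call of a member except that of HSPE1 for 80 nM against 8 nM (adjusted p = 0.058). With 3 arrays a group, the standard errors of the members' changes were 0.07 to 0.24 log2 units, and nominal bounds replace the folds of HSPA1A and HSPA2 where their signals were near background.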
